A study of Sus scrofa with 4 samples.

Results

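The step from D2 to D4 in the differentiation of pig subcutaneous preadipocytes was described across all genes, with the D2 and D4 libraries compared directly. D2 was sampled at the end of 2 days in the hormone cocktail, and D4 after 2 further days in medium that held insulin but no dexamethasone and no IBMX. A gene was a member when its FPKM (the fragments of a gene, scaled to its length and to the depth of the library) was at least 1 at D2 or D4. By this rule, 10573 of 21807 protein-coding, lncRNA, lincRNA and antisense genes were members, 9813 of them protein-coding (of 16192) and 760 non-coding (of 5615). Circular RNAs (circRNAs) were taken separately, and 5842 of 8623 were above 0 at D2 or D4.

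The cells were primary cultures from the subcutaneous fat of 3 male Erhualian piglets that were 5 days old. They were grown to confluence (D0), given dexamethasone, IBMX and insulin until D2, insulin until D4 and plain growth medium until D8. RNA of the 3 piglets went in equal parts into a pool, from which 1 strand-specific, rRNA-depleted library was made per stage. With no replicates, a difference between stages cannot be told apart from one between libraries, and no test was run. In bulk RNA, fewer cells of a type and less RNA per cell cannot be told apart either. Below, "rose" and "fell" mean a ratio of at least 2 between these libraries, on log2(FPKM + 0.1), and intervals are 95% counting intervals of the ratio of reads, which leave out the variation between cultures.

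A preadipocyte is a fibroblast-like cell that becomes a fat cell when its medium carries a glucocorticoid, a rise in cAMP and insulin. Dexamethasone acts on the glucocorticoid receptor, and IBMX keeps cAMP high by blocking phosphodiesterases. Cells in this medium first express C/EBPβ and C/EBPδ, which turn on PPARγ and C/EBPα, and these in turn switch on the genes of fat storage. Insulin drives the uptake of glucose and the synthesis of fatty acids. Confluent preadipocytes of mouse lines divide again before they differentiate, in a phase called clonal expansion.

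The libraries rested on 54987801 fragments at D2 and 74358922 at D4, computed from the deposited FPKM. The 7SL RNA of the signal recognition particle alone took 17.1% of the reads at D2 and 12.5% at D4. The median log2 ratio of all protein-coding members was 0.10, so most genes sat slightly above 0, and this shift was 0.01 for the shortest and 0.20 for the longest sixth of the genes. Ratios are given as deposited, without removing that shift. The defining markers of the cells were present, with PPARG, FABP4 and ADIPOQ for adipocytes and PDGFRA, THY1 and COL1A1 for the fibroblast-like starting cells all above FPKM of 26 at both stages. Of the markers of other cells, 3 of 12 leukocyte genes (CD14, CD163 and MRC1) and 1 of 9 endothelial genes (PECAM1) were members, with FPKM of at most 7.54 and 1.70, and LYZ and VWF were at 0 in both libraries. Of 6 epithelial and erythroid genes, KRT5 (107 and 180) and KRT8 (8.25 and 15.8) were members; their part in the results was not tested.

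Among protein-coding genes, 483 (4.92%) rose and 104 (1.06%) fell. Both libraries were at FPKM of at least 1 for 9170 members, among which 289 rose and 53 fell. A ratio of at least 4 was reached by 106 genes upward and 13 downward. The counting interval lay wholly above a 2-fold rise for 384 members and wholly below a 2-fold fall for 68. Of the 483 genes that rose, 295 were highest at D4 of the 4 stages, 102 at D0 and 86 at D8. The 104 that fell were highest at D2 in 45 cases, at D0 in 40 and at D8 in 19. By the call itself, a gene that rose cannot be highest at D2, nor one that fell at D4. The same count over all members was not made, so these counts only describe the called genes. Nearest to the limit of the rule, the lincRNA gene MSTRG.149667 was inside with FPKM of 1.00009 at D2 and 0.983 at D4, and the protein-coding BBS1 was outside with 0.720 and 0.99885.

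**Figure D1:**
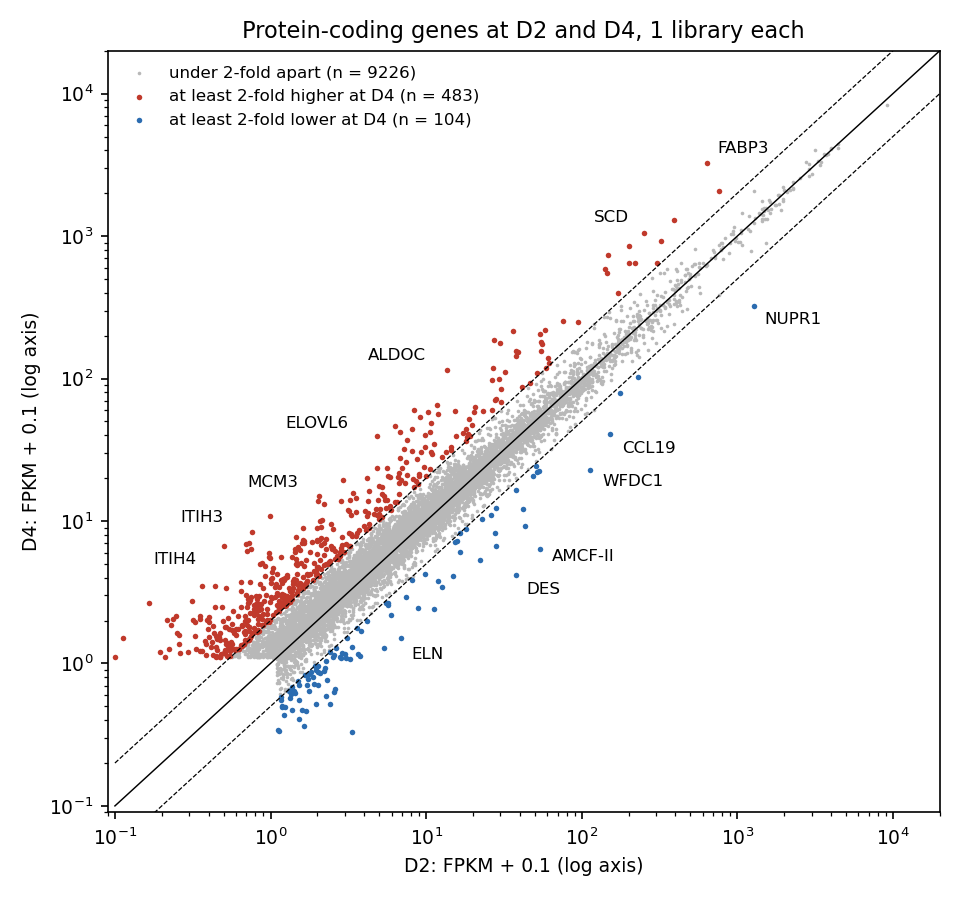
FPKM + 0.1 of the 9813 protein-coding members at D2 (x) and D4 (y), both on log axes, with 1 point per gene, equality as a solid line and 2-fold differences as dashed lines. The 483 genes that rose (red) reach from the lowest levels up to FABP3 at FPKM 3254, and the 104 that fell (blue) include NUPR1, at 1284 in D2.

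The genes of the mature fat cell rose as a group. The list of adipocyte identity genes held 23 members, of which 18 rose and none fell, beside 4.92% of all protein-coding members, and the median log2 ratio was 2.07. Since a gene that passed the filter only through the library where it is high had to differ, counts are also given without it: 20 of the 28 measured genes rose and 1 fell. The fall was that of leptin (LEP), with FPKM of 0.156 at D2 and 0.0269 at D4 from 43 and 10 reads. Among the 23 members, CFD alone was lower at D4 (1.55 and 1.16, log2 ratio -0.39). With both libraries at FPKM of at least 1, 15 of 20 rose.

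Adiponectin (ADIPOQ), a hormone that fat cells secrete, had FPKM of 3.80, 29.6, 179 and 158 at D0, D2, D4 and D8, a log2 ratio of 2.59 from D2 to D4 (interval 2.52 to 2.67). Perilipin 1 (PLIN1), which coats lipid droplets and gates lipolysis, went from 36.1 to 215 between D2 and D4 and stood at 90.3 at D8. CIDEC, which fuses lipid droplets, was still low at D4, with 0.780 at D2, 5.01 at D4 and 54.6 at D8. PLIN1 thus peaked at D4, while most of the CIDEC level was reached after it.

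Fatty acid carriers were the most abundant of the group. FABP3 had FPKM of 153, 638, 3254 and 3805 over the 4 stages, and FABP4, the carrier typical of fat cells, went from 201 at D2 to 853 at D4. The log2 ratios were 2.35 and 2.09. Lipoprotein lipase (LPL), which frees fatty acids from blood lipoproteins, went from 94.7 to 250. The insulin-dependent glucose transporter SLC2A4 was at 1.53 at D2 and 8.80 at D4, 5.47-fold higher (log2 ratio 2.45, interval 2.32 to 2.74).

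The transcription factors stayed mostly under 2-fold. PPARG, the receptor that drives the fat cell program, was at 2.95, 26.4, 51.9 and 25.8, and its log2 ratio of 0.97 stayed just under 2-fold. CEBPA was at 15.4, 95.3, 162 and 37.1, with a log2 ratio of 0.77. Of 25 members among nuclear receptors and adipogenic transcription factors, 1 rose (SREBF1, 0.970 to 3.34, the factor that turns on lipogenic genes) and none fell. CEBPB, an early factor, was at 22.4 and 31.1 (log2 ratio 0.47), and CEBPD at 299 and 178 (-0.74). The median of the list was 0.38, and of the 23 factors with FPKM of at least 1 in both libraries none passed 2-fold.

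Genes of de novo lipogenesis, which make fatty acids from sugar, rose in 11 of 20 members, and none fell (median 1.28), with 12 of 23 rising without a filter and 10 of 19 where both libraries were at FPKM of at least 1. ELOVL6, which lengthens palmitate to stearate, was at FPKM of 3.67, 4.75, 39.1 and 94.0, an 8.08-fold difference from D2 to D4 (log2 ratio 3.01, interval 2.96 to 3.12). Stearoyl-CoA desaturase (SCD), which makes monounsaturated fatty acids, went from 249 to 1053 and took 466602 reads at D4. ELOVL6 had hardly moved from D0 to D2, while SCD had already gone from 31.5 to 249.

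The enzymes upstream of them rose as well. ATP citrate lyase (ACLY), which supplies acetyl-CoA, went from 54.6 to 156, acetyl-CoA carboxylase (ACACA) from 18.7 to 51.7 and fatty acid synthase (FASN) from 5.11 to 17.2. Malic enzyme (ME1), a source of NADPH, went from 7.30 to 26.0. THRSP, a lipogenic protein of fat and liver, went from 55.0 to 182. TALDO1, an enzyme of the pentose phosphate pathway, was at 225 and 185 (log2 ratio -0.28).

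Of 15 members of triglyceride assembly, 5 rose: DGAT2, LPIN1, GPD1, GPAT3 and AGPAT1 (4 of 14 with both libraries at FPKM of at least 1). DGAT2, which adds the last fatty acid to a triglyceride, was at FPKM of 0.152, 10.1, 57.7 and 47.1, which was 5.65-fold higher at D4 than at D2. DGAT1, the other enzyme of this step, was at 2.34 at D2 and 2.90 at D4. Lipolysis and β-oxidation rose in 6 of 26 members (median 0.26), and in 4 of 24 with both libraries at FPKM of at least 1. LIPE, the hormone-sensitive lipase, went from 7.15 to 31.9 while PNPLA2, which takes off the first fatty acid, was at 8.95 and 17.9, just short of 2-fold (log2 ratio 0.99). CPT1A, the gate of fatty acids into mitochondria, was lower at D4 (10.5 and 6.67, log2 ratio -0.64). All 21 members of cholesterol synthesis and uptake were higher at D4, with 2 past 2-fold (TM7SF2 and HMGCS1) and a median of 0.49.

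The 39 nuclear genes of the respiratory chain had no gene past 2-fold and a median of 0.03. Among 8 thermogenic genes, 2 rose, CIDEA from 9.74 to 40.2 and the creatine kinase CKB from 15.4 to 39.3. The cytosolic ribosomal proteins had a median of 0.02, and 1 of 76 rose, RPS29 from 761 to 2058. The start of RPS29 lies 152 bases from that of the 7SL gene on the other strand (chromosome 1, 179454923 to 179456847 in Sscrofa11.1), and its D0 and D8 values were 451 and 600. That 7SL gene was at FPKM of 607260 at D2 and 443535 at D4, and its part in the RPS29 value was not tested.

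**Figure D2:**
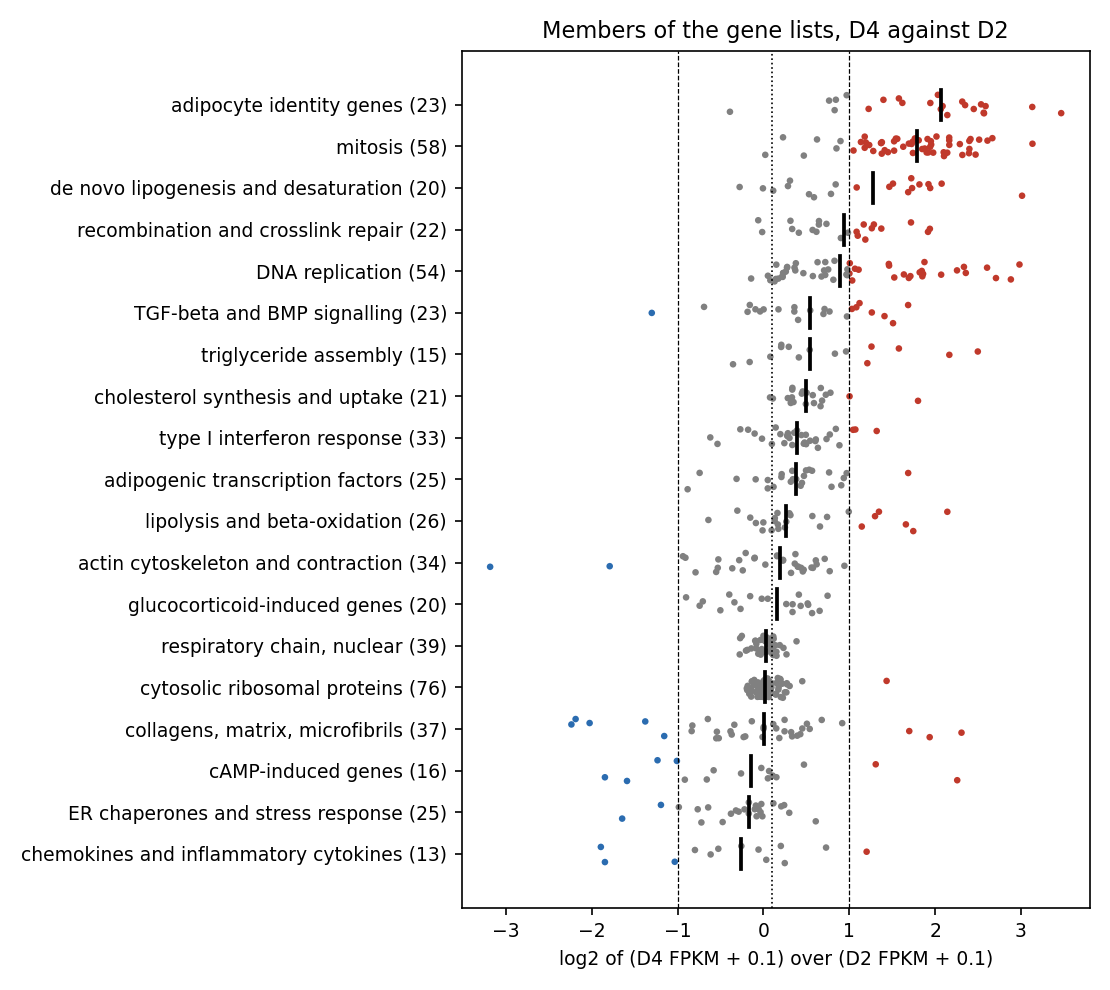
Log2 of (D4 FPKM + 0.1) over (D2 FPKM + 0.1) for the members of 19 gene lists, 1 point per gene, with the number of members in brackets, the list median as a black bar, the median of all protein-coding members (0.10) dotted and 2-fold dashed. Adipocyte identity (median 2.07) and mitosis (1.79) lie farthest right, and the chemokine list (-0.26) farthest left.

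The cell division genes formed the other large rise. Of 58 members of the mitosis list, 52 rose and none fell (median 1.79), and without a filter 59 of 67 measured genes rose. Many were near 0 at D2, so that only 32 had FPKM of at least 1 in both libraries, and 26 of those rose. Topoisomerase IIα (TOP2A), which untangles chromosomes, was at 18.1, 2.75, 13.8 and 13.3 over the 4 stages. Cyclin B1 (CCNB1), which drives entry into mitosis, was at 43.8, 3.09, 11.6 and 25.9. The D4 levels of the list remained below those of D0, with a median log2 ratio of -0.86 between these libraries.

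DNA replication rose in 24 of 54 members and fell in none (median 0.90), and 13 of 43 rose where both libraries were at FPKM of at least 1. MCM3, a subunit of the replicative helicase, was at 5.97, 1.94, 14.9 and 5.47 (log2 ratio 2.88, interval 2.80 to 3.10). UHRF1, which brings DNA methylation to newly made DNA, was at 1.61, 0.339, 3.38 and 1.31. For both, D4 was the highest stage, unlike TOP2A and CCNB1. The other helicase subunits spread widely, with MCM4 at a log2 ratio of 2.26, MCM2 at 1.71, MCM5 at 1.52, MCM7 at 0.98 and MCM6 at 0.63, the last pair short of 2-fold. The sliding clamp PCNA went from 59.0 to 118.

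The loading factors CDT1 and ORC1 rose as well, while the CDT1 inhibitor GMNN stood at 4.98 and 5.51 (log2 ratio 0.14). Recombination and crosslink repair rose in 10 of 22 members, and in 4 of 15 with both libraries at FPKM of at least 1. Cell cycle inhibitors and G1 cyclins gave 1 rise in 16, CDKN2C from 1.24 to 3.13. CCND1, the cyclin D1 gene, was at 14.4, 2.57, 2.79 and 7.27 and thus differed little between D2 and D4 (log2 ratio 0.11). The kinase inhibitor CDKN1A was at 73.6 and 67.9.

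A cluster of short genes on chromosome 7 also rose. It was picked out after the values were seen, since 2 of the 15 largest rises, LOC100157763 and LOC100154071, lie in it, so its count is a description. Between positions 20621090 and 21829491, 35 members with a gene length of at most 1500 bases lie around HIST1H2BD and HIST1H3E, 33 of them with LOC symbols that the files leave unnamed. Of these 35, 25 rose and none fell (median log2 ratio 1.74), against 27 of the other 613 members on the chromosome (4.40%). Their FPKM summed to 5970, 3366, 6929 and 7612 over the 4 stages.

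Within this cluster the spread was large. LOC100157763 (21582735 to 21583552) went from 8.27 to 60.2 and LOC100154071 (21592937 to 21593433) from 27.3 to 185. LOC110261735 was at 8.02 and 43.9. HIST1H2BD, in contrast, was at 53.8 and 50.2, and LOC110261477 at 394 and 383. HIST1H2BD was lower at D0 (23.2) and D8 (28.9). Histone genes such as HIST1H2BD have near-identical copies, and how reads were shared among copies is not given in the sources used here, so values of single genes in the cluster are uncertain.

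**Figure D3:**
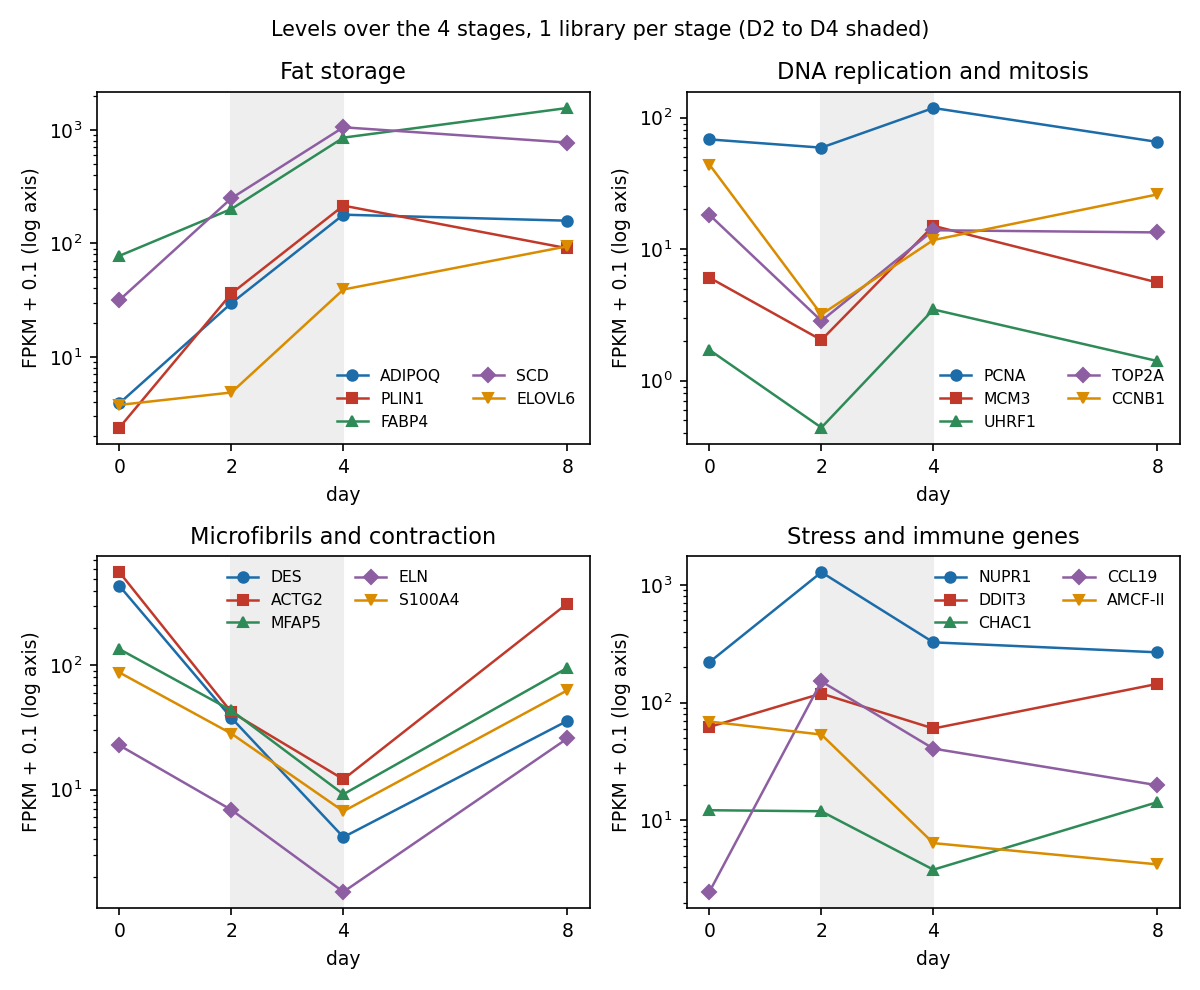
FPKM + 0.1 (log axis) against day for 20 genes in 4 groups, 1 library per stage, with the interval from D2 to D4 shaded. MCM3, UHRF1 and PCNA were highest at D4, and DES, ACTG2, MFAP5, ELN and S100A4 had their lowest level there.

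The 15 largest rises were taken among genes with FPKM of at least 5 in one library. ITIH4 (chromosome 13, 34928455 to 34948250) was at FPKM of 0.110, 0.403, 6.63 and 3.06, a log2 ratio of 3.74. Its neighbour ITIH3 (34911104 to 34924881), which like ITIH4 encodes a heavy chain of inter-α-trypsin inhibitor, was at 0.0508, 0.656, 8.27 and 17.2. SEMA3G, a secreted semaphorin encoded on the same chromosome (34574014 to 34585686), was at 0.0215, 0.60, 6.79 and 1.59. All 3 were near 0 at D0, and only ITIH3 among them was higher at D8 than at D4. All 3 were also under FPKM of 1 at D2, so the size and rank of their ratios depend on the pseudocount. With a pseudocount of 1, the log2 ratio of ITIH4 was 2.44, below 2.99 for ALDOC and 2.80 for ELOVL6.

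ADIRF, an adipogenesis regulatory factor, rested on 4 reads at D2 and 66 at D4, which gave 0.887 and 10.8, and it reached 88.3 at D8. The glycolytic aldolase ALDOC (chromosome 12, 44823376 to 44827273) was at 9.37, 13.6, 115 and 45.8, an 8.40-fold difference (interval of the log2 ratio 3.00 to 3.16). ADAMTS12, a secreted metalloprotease, went from 0.627 to 6.88. The alcohol dehydrogenase ADH1C was at 0.0264, 2.82, 19.2 and 27.7 and the flavin monooxygenase FMO1 at 0.0280, 0.645, 6.26 and 3.31. ALDOC stood out for its level, with 15083 reads at D4.

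CEACAM1, a cell adhesion receptor, was high at D4 alone, at 0.110, 1.92, 13.7 and 1.54. PGLYRP2, an amidase that cleaves bacterial peptidoglycan, went from 0.608 to 6.05 and reached 24.9 at D8. LOC102161782 on chromosome 4 (99187225 to 99187722) was at 30.7, 6.21, 46.6 and 36.2, and was lowest at D2. ELOVL6 and MCM3, described above, complete the 15.

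The 15 largest falls were taken by the same rule. Desmin (DES), the intermediate filament of muscle, was at FPKM of 436, 37.7, 4.05 and 35.7, 9.10-fold lower at D4 than at D2 (log2 ratio -3.19, interval -3.33 to -3.11). Smooth muscle γ-actin (ACTG2) was at 562, 41.9, 12 and 315. These were the 2 falls among 34 members of the actin cytoskeleton list, where none rose and the median was 0.19. ACTA2, smooth muscle α-actin, was at 324 and 225 (log2 ratio -0.53), β-actin (ACTB) at 117 and 174 (0.58) and vinculin (VCL) at 27.6 and 53.1 (0.94). In all, 20 of the 34 were higher at D4 and 14 lower, FLNA (81.8 and 42.6) and TPM2 (90.2 and 48.0) among the lower. Of 11 skeletal muscle markers DES alone was a member, and each of the other 10 was at FPKM of at most 0.215. Of 12 mural cell markers 9 were members, of which DES fell and none rose, and their summed FPKM went from 773 to 621; their part in these falls was not tested.

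Another 3 of the 15 falls were matrix genes. MFAP5, a microfibril protein, was at 135, 43.3, 9.09 and 95.4, and elastin (ELN) at 22.6, 6.77, 1.41 and 25.7. LOXL4, which crosslinks elastin and collagen, was at 46.3, 14.9, 4.01 and 16.7. Each of these 3 was lowest at D4. In the matrix list of 37 members, 3 rose and 5 fell, with a median of 0.001 (3 and 3 of 34 with both libraries at FPKM of at least 1). The rises were COL5A3 (7.42 to 37.1), COL15A1 (15.3 to 58.8) and POSTN (6.59 to 21.6), and the falls MFAP5, ELN, COL11A1 (2.46 to 0.529), COL14A1 (2.73 to 0.987) and FMOD (176 to 79.0).

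The main collagens went both ways without passing 2-fold, COL1A1 from 283 to 193 and COL3A1 from 1286 to 2058. NID2 and LAMA2, which build the basement membrane, rose with log2 ratios of 1.19 and 1.16 (2 of 16 members of that list), while its most abundant member COL4A1 was at 332 and 373. Proteases and their inhibitors rose in 4 of 22 members, ADAMTS12, MMP13, TIMP4 and ADAMTS15, and fell in none. With both libraries at FPKM of at least 1, 1 of 19 rose. MMP13 was near the limit of the rule, with 0.110 and 1.02.

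Immune and stress genes made up much of the rest of the 15 largest falls. AMCF-II, a CXC chemokine (chromosome 8, 70008225 to 70010360), was at 69.0, 53.4, 6.30 and 4.12, 8.37-fold lower at D4 than at D2. CCL19, which draws T cells and dendritic cells, was at 2.36, 151, 40.6 and 19.8, and the cytokine gene IL6 at 5.96, 8.71, 2.35 and 2.35. AMCF-II had stayed near its D0 level at D2, whereas CCL19 was far above its own. AMCF-II is not in the chemokine list. Of the 13 members of that list, 3 fell (CCL19, IL6 and IL33) and 1 rose, the pentraxin PTX3 from 172 to 396. Of 33 members of the interferon list, 3 rose (CMPK2, PARP14 and MX2) and none fell, but all 3 were under FPKM of 1 at D2, and none of the 30 at 1 or more in both libraries passed 2-fold.

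NUPR1, a small stress-induced nuclear protein, was at 221, 1284, 325 and 268, and thus fell from a high level (log2 ratio -1.98). The ER stress list held 25 members, of which 2 fell and none rose (median -0.17). CHAC1, which degrades glutathione, was at 12.1, 11.8, 3.70 and 14.2 and the chaperone DNAJB9 at 24.1, 37.8, 16.4 and 23.3. DDIT3, a stress transcription factor, was at 119 and 60.2, just short of 2-fold (log2 ratio -0.99), and ATF4, which acts upstream of it, at 233 and 141. HSPA5, the main ER chaperone, was at 197 and 185. INHBE, an inhibin subunit, fell from 5.24 to 1.18 and was at 16.1 at D8.

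The remaining large falls were WFDC1, a secreted protein with a WAP domain (112 to 22.8), RAMP1, a partner of the CGRP receptor (11.2 to 2.31), the calcium-binding S100A4 (28.1 to 6.6), osteopontin (SPP1, 12.5 to 3.36) and LOC102166944 (22.0 to 5.19). WFDC1, RAMP1, S100A4 and SPP1 were higher again at D8, at 119, 18.6, 62.9 and 13.8. LOC102166944 alone of these 5 was near 0 at D0 (0.526).

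The genes that the removed agents are known to induce were described next. None of 20 members of the glucocorticoid list rose or fell, and the median was 0.16. FKBP5, a chaperone of the glucocorticoid receptor, was at FPKM of 4.88, 61.2, 77.4 and 38.6, and glutamine synthetase (GLUL) at 35.5, 288, 412 and 127. TSC22D3, the leucine zipper protein GILZ, was at 3.26, 33.5, 23.6 and 31.7. FKBP5 and GLUL were thus highest at D4, but the list went both ways, with 11 members higher at D4 and 9 lower. The ends were NFKBIA, at 44.5 and 74.7 (log2 ratio 0.75), and MT1A, at 11.3 and 6.01 (-0.90). DUSP1 (-0.71) and SGK1 (-0.27) were among the lower. By its median log2 ratio, the list stood 1.79 above D0 at D2 and 1.65 at D4.

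The cAMP list had 2 rises and 4 falls in 16 members (median -0.14), but 2 and 2 of the 14 with both libraries at FPKM of at least 1 (median 0.01). RGS2, a regulator of G protein signalling, was at 3.08, 25.9, 10.9 and 3.39, stanniocalcin 1 (STC1) at 0.529, 2.20, 0.662 and 1.21, and IL6 as above. Phosphodiesterase genes split, since PDE4D fell from 1.82 to 0.853, PDE7B was at 7.27 and 3.81 (log2 ratio -0.92), PDE4B at 7.03 and 5.84, and PDE3B, the form that insulin activates, rose from 1.61 to 4.13. DUSP4, a phosphatase of MAP kinases, rose from 1.07 to 5.48. The immediate early gene FOS was at 9.83 and 9.66.

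Of 13 members of the IGF axis, IRS1, an adaptor of the insulin receptor, rose from 1.26 to 3.18 and no other passed 2-fold. INSR was at 3.61 and 5.68 and IGF1 at 49.1 and 44.8. Of 23 members of TGF-β and BMP signalling, 7 rose and 1 fell (median 0.55), and 6 of the 21 with both libraries at FPKM of at least 1 rose and none fell. The rises included the inhibitory SMAD7 (1.35 to 3.76), SMAD3 (8.75 to 18.0), the ligand TGFB2 (1.56 to 3.41), the BMP binders BMPER (4.93 to 12) and FST (2.28 to 5.06), and CTGF (2.01 to 6.70), while the BMP antagonist GREM1 fell from 2.09 to 0.789.

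Of 15 members of the WNT list, WNT5B and the feedback inhibitor NKD1 rose and the antagonist SFRP4 fell (3.64 to 1.03). With both libraries at FPKM of at least 1, 1 of 11 rose and 1 fell. Among 22 preadipocyte and progenitor genes, 1 rose, ZNF423, a preadipocyte zinc finger factor (0.623 to 1.71), from under FPKM of 1. PDGFRA was at 189 and 149 and THY1 at 101 and 88.0, so these markers of the starting cells stayed high. The 12 qRT-PCR reference rows gave no rise and no fall, with GAPDH at 423 and 345 and HPRT1 at 5.32 and 8.68. Over all 32 lists, 155 of the 483 rises and 17 of the 104 falls belonged to one of them, beside 690 of all 9813 protein-coding members. The lists were chosen with earlier results known, so these counts are a description.

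Of the 760 non-coding members, 100 (13.2%) rose and 116 (15.3%) fell, a larger share than among protein-coding genes at a much lower depth (a median of 119 reads in the larger library against 2047). The share differed by class, and so did the depth. Median reads in the larger library were 301 for annotated lncRNAs, 68 for lincRNAs and 83 for antisense RNAs. Of 273 annotated lncRNAs, 19 rose (6.96%) and 9 fell (3.30%). Of 285 lincRNAs, 46 rose (16.1%) and 68 fell (23.9%). Of 202 antisense RNAs, 35 rose (17.3%) and 39 fell (19.3%). Of the 454 with FPKM of at least 1 in both libraries, 14 rose and 22 fell. By class, these were 5 and 2 of 216 annotated lncRNAs, 2 and 13 of 135 lincRNAs, and 7 and 7 of 103 antisense RNAs. Counting intervals lay wholly beyond 2-fold for 39 upward and 52 downward.

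Among non-coding genes with FPKM of at least 2 in one library, the deepest fall was that of MSTRG.104586 (chromosome 12, 39856609 to 39901694), an RNA antisense to AP2B1, which had 0, 52, 4 and 2 reads and thus FPKM of 0, 3.74, 0.213 and 0.146. AP2B1, a subunit of the clathrin adaptor, was at 41.9 and 43.8. MSTRG.30727 (chromosome 3, 26157123 to 26175881), antisense to CCP110 and C3H16orf62, had 71 reads at D2 and 6 at D4, and CCP110 was at 4.51 and 5.11. In both cases the gene on the other strand stayed near its level.

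MSTRG.124816, antisense to the ubiquitin ligase gene HERC4 (chromosome 14, 71262433 to 71267191), fell from 4.70 to 0.935, with HERC4 at 18.5 and 18.3. MSTRG.86140, antisense to TIMM8B, had 27 and 7 reads. MSTRG.131450 (chromosome 15, 38783952 to 38790459) lies 146 bases from SPCS3 on the other strand and fell from 2.91 to 0.464, with SPCS3 at 11.6 and 11.4. MSTRG.139085 was the most abundant of the 8 falls, with 8.38 at D2 and 1.61 at D4. MSTRG.30830 and MSTRG.101160 completed them, with 34 and 69 reads at D2 and 5 and 21 at D4.

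**Figure D4:**
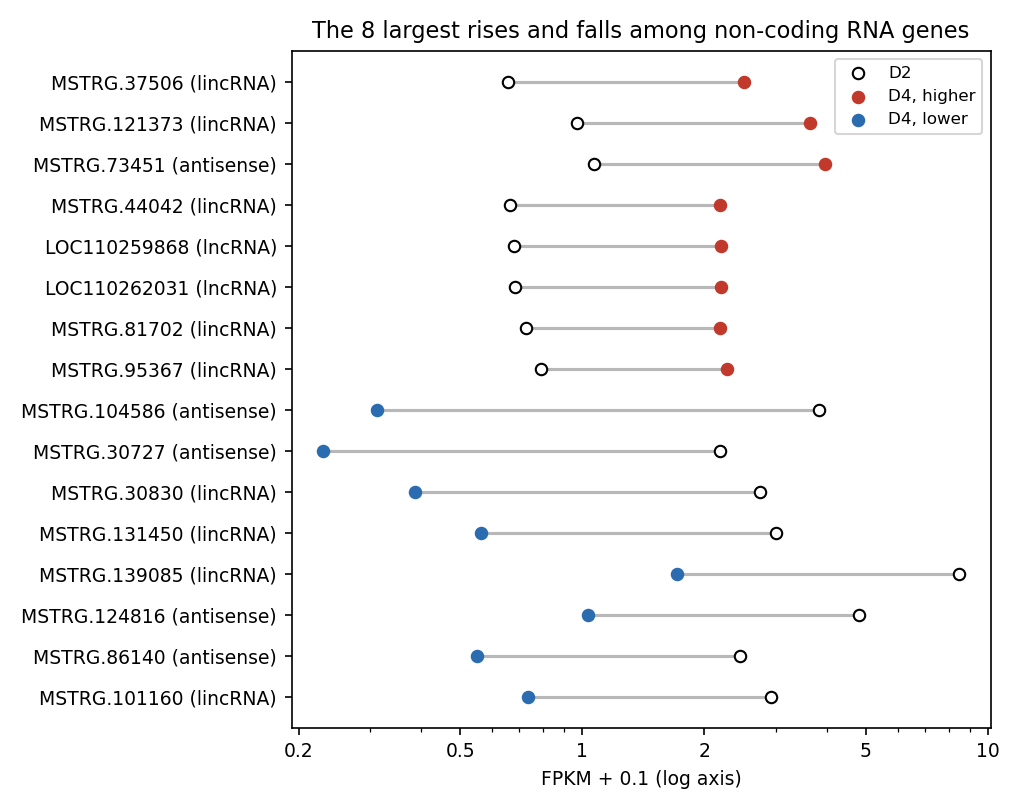
FPKM + 0.1 (log axis) at D2 (open circles) and D4 (filled circles) of the 8 non-coding RNA genes with the largest rises (red) and the 8 with the largest falls (blue) among those with FPKM of at least 2 in one library. Among the genes drawn, the falls reach further, to a log2 ratio of -3.62, than the rises, which end at 1.93.

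The largest rise under the same rule was that of MSTRG.37506, a lincRNA on chromosome 3 (115080604 to 115177548), with 57, 18, 105 and 22 reads and FPKM of 1.29, 0.557, 2.40 and 0.691. MSTRG.121373 (chromosome 14, 28591248 to 28624723) had 16 reads at D2 and 88 at D4. MSTRG.44042 was the best covered, with 118 reads at D2 and 594 at D4 (log2 ratio 1.73, interval 1.61 to 2.19). LOC110262031, on the strand opposite FGFRL1 and overlapping it (chromosome 8, 356892 to 366157), went from 0.581 to 2.09, and FGFRL1, an FGF receptor without a kinase, from 1.04 to 2.35.

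MSTRG.73451, antisense to IRF9, went from 8 to 43 reads, and IRF9 was at 8.18 and 8.76. LOC110259868, 67 bases from TRIM4, went from 20 to 98 reads. MSTRG.81702 and MSTRG.95367 rested on 21 and 4 reads at D2, and the interval of the latter began at 0.04. With the pseudocount of 0.1, the 8 rises ended at 3.81-fold. This end holds only for genes with FPKM of at least 2 in one library. Of all 760 non-coding members, 32 rose and 49 fell by at least 4-fold.

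Antisense members as a whole were set beside the genes they overlap. Of 202, 170 overlapped a protein-coding gene on the other strand. Of the 46 that rose or fell with a partner at FPKM of at least 1, 25 (54.3%) had a partner that differed by less than 1.2-fold, beside 55.6% of all protein-coding members, and 4 (8.7%) had one that itself passed 2-fold, beside 5.98%. These shares were near those of all genes. In 2 of those 4 both strands moved the same way. COL15A1 rose with its antisense MSTRG.14337 (log2 ratios 1.94 and 1.98), and C12H17orf67 fell with MSTRG.104053. INCENP and CHST13 rose while their antisense RNAs MSTRG.18286 and MSTRG.111469 fell.

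A circRNA is a ring that forms when a downstream splice site joins an upstream one, and it is counted by the reads that cross this back-splice junction. The values, SRPBM, are junction reads scaled by the mapped reads of the library, and they were whole numbers of reads in every case, within 0.002 of a read. In total 43989 junction reads were counted at D2 and 51074 at D4. No library listed a circRNA at 1 read, so a 0 can stand for 0 or 1. For ratios, a library at 0 was set to 3 junction reads. The counting intervals took it as 0 reads, and with 1 read their near ends would lie closer to a ratio of 1.

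Of 1982 circRNAs with at least 10 junction reads in one library, 595 (30%) were at least 2-fold higher at D4 and 603 (30.4%) at least 2-fold lower. The median log2 ratio was -0.05. The counting interval left out a ratio of 1 for 512 of the higher and 509 of the lower ones. Of the 1982, 671 (33.9%) were at 0 in the other library, 393 at D2 and 278 at D4. With the 0 set to 3 reads and a minimum of 10, all 671 passed 2-fold by the rule itself. Among the 1311 above 0 in both, 202 were higher and 325 lower.

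The share at 0 went down with the read number, but not to 0. It was 52.4% of 922 circRNAs with 10 to 14 reads in the larger library, 18.4% of 305 with 20 to 29 reads, 3.30% of 182 with 30 to 49 reads and 6.29% of 159 with 50 or more. For the 671 at 0 in one library, another circRNA with both ends within 10 bases was found there for 1 at D2 and 1 at D4, and one that shared a single end for 154 and 109. Of the 654 that lay within a gene, 607 had a host gene at FPKM of at least 1 in both libraries. This share was not counted for the circRNAs above 0 in both, so the groups cannot be compared.

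**Figure D5:**
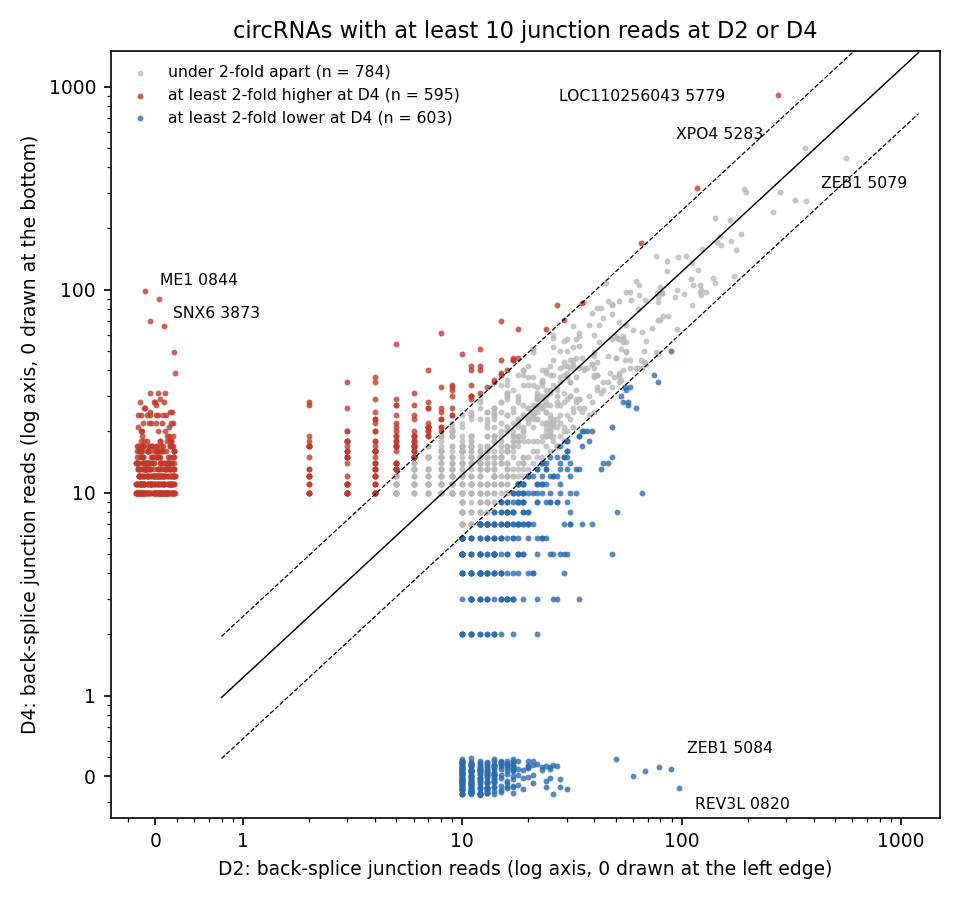
Back-splice junction reads at D2 (x) and D4 (y) of the 1982 circRNAs with at least 10 in one library, on log axes, with 0 drawn at the edge with a small random offset, the solid line at equal SRPBM and the dashed lines 2-fold away. Labels give the host gene, and a set of well covered circRNAs, such as the REV3L ring with 97 reads at D2, sits at 0 in the other library.

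Among rings with at least 30 reads in one library, the largest rise came from ME1, whose mRNA rose too. ssc_circ_0000844 (chromosome 1, 82875117 to 82891579) had 20, 0, 98 and 125 junction reads. It was 26.7-fold higher at D4 than at D2 with the 0 set to 3 reads. The near end of the counting interval, with the 0 taken as 0 reads, was 21.3-fold. The ME1 mRNA was at FPKM of 4.23, 7.30, 26.0 and 33.4. SH3PXD2A was the other host among the 8 largest rises whose mRNA rose, from 4.18 to 8.90, and its ssc_circ_0006802 had 5 and 54 reads.

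For the other hosts the mRNA stayed within 2-fold. ssc_circ_0003873 of SNX6 (chromosome 7, 65198472 to 65198799) had 0, 0, 90 and 32 reads, while SNX6 was at 40.7 and 40.2. ssc_circ_0000515 of PCSK5 had 0 reads at D2 and 70 at D4, while the 10 other rings of PCSK5 had 85 and 72. Those of ZRANB1, EDC3 and RSRC1 were at 0 at D2 alone, with 66, 49 and 39 reads at D4 and 114, 109 and 100 at D0. ssc_circ_0005416 of MYCBP2 had 3 and 35 reads.

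The deepest fall was that of ssc_circ_0000820 from REV3L (chromosome 1, 77263699 to 77270404), with 61, 97, 0 and 67 reads. It was 39.6-fold lower at D4 than at D2 with the 0 set to 3 reads. The near end of the counting interval, with the 0 taken as 0 reads, was 31.6-fold. The 19 other rings of REV3L, the catalytic subunit of a translesion polymerase, had 105 reads at D2 and 159 at D4, and its mRNA was at 30.1 and 36.2. ssc_circ_0004147 of ANTXR2 had 159, 79, 0 and 42 reads and ssc_circ_0005643 of EIF4A3 had 48, 50, 0 and 38. In these cases D4 was the only stage at 0.

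ssc_circ_0007592 of METTL5 had 60 reads at D2 and 0 in the other 3 libraries, as did ssc_circ_0003658, with 68, which spans 64155 bases from SLA-1 in a region of near-identical genes and is uncertain for that reason. ssc_circ_0003139 of SPATA6 had 34 and 3 reads and ssc_circ_0000719 of PTP4A1 30 and 0. METTL5 mRNA was at 25.1 and 22.6. None of the host mRNAs of the 8 largest falls passed 2-fold.

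ZEB1, a repressor of epithelial genes, gave rings that share an end. ssc_circ_0005079 (chromosome 10, 42063516 to 42079536) had 855, 559, 442 and 285 reads, and ssc_circ_0005084, whose junction ends at the same base and starts at 42063616, had 229, 89, 0 and 48. A ring that starts at 42061873, ssc_circ_0005074, had 548, 260, 242 and 191. ssc_circ_0005080, which runs from 42063516 to 42147610, had 0, 123, 94 and 104. The other 3 named here were thus within 2-fold of D2 at D4, while ssc_circ_0005084 was at 0 and ssc_circ_0005091 fell from 39 to 20 reads. ZEB1 mRNA was at 5.13 and 3.697.

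Most of the best covered rings differed by less than 2-fold. ssc_circ_0005779, within LOC110256043 (chromosome 12, 39366927 to 39391822), was the exception and the most abundant at D4, with 22, 274, 907 and 785 reads (log2 ratio 1.44, interval 1.24 to 1.64). LOC110256043 itself was at FPKM of 2.06, 21.7, 41.3 and 57.4. ssc_circ_0005283 of XPO4 had 364 and 499 reads, ssc_circ_0008427 of GRIPAP1 368 and 274, ssc_circ_0004941 of ENAH 328 and 275 and ssc_circ_0000063 of SLTM 192 and 314. The 8 rings with most reads ran from log2 ratios of -0.72 to 1.44, and 7 of them stayed under 2-fold.

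When the junction reads of all rings of a host were summed, the share past 2-fold was near that of single rings at the same read minimum. Of 514 hosts with at least 30 summed reads in one library, 71 were at least 2-fold higher and 69 lower (27.2% in all), beside 31.1% of the 341 single rings with at least 30 reads. Of these hosts, 9 were at 0 in one library, and the median was -0.04. MYCBP2 went from 3 to 84 summed reads and SND1 from 57 to 3, while their mRNAs were at 9.05 and 13.1 and at 41.8 and 51.4. Of 381 hosts with 2 or more rings of at least 10 reads, 331 had a ring past 2-fold, and 113 had a ring higher and another lower by 2-fold. PRPSAP2 had 9 rings of at least 10 reads, 2 higher and 4 lower, with sums of 348 and 416 reads. OSBPL1A had 8, 4 higher and 1 lower, with sums of 63 and 160. Of all 1982 rings at that minimum, 595 were higher and 603 lower, so a host with several rings can hold both by chance. The number of hosts that chance alone would give was not computed, so the 113 are a description, and a change specific to single rings was not tested.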

How the data were processed

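Total RNA of 4 differentiation stages (D0, D2, D4, D8) was sequenced as 1 pooled library per stage. Per the labels and the study's methods, the authors removed rRNA, made strand-specific libraries, aligned reads with HISAT2 (2.0.5) to Sscrofa11.1, and deposited FPKM for genes. The tool that counted genes is not given in the sources used here. The circRNA values in the same column are another unit, SRPBM, which the authors made from BWA-MEM alignments with CIRI, keeping at least 2 junction reads.

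From the deposited FPKM, whole read numbers were recovered (a gene length that put all libraries within 0.01 of whole reads, found for 22941 of 22944 genes), which gave totals of 75387428, 54987801, 74358922 and 54128151 fragments for D0, D2, D4 and D8. Members had FPKM of at least 1 at D2 or D4, and the log2 ratio used a pseudocount of 0.1. Intervals (95%) are exact Clopper-Pearson intervals of the ratio of reads and cover counting error only. A called difference is 2-fold. With 1 library per stage no p-value was computed. Depth limits rare features most.

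Named are the 15 largest rises and 15 falls with FPKM of at least 5 for protein-coding genes, 8 and 8 with FPKM of at least 2 for lncRNAs, 8 and 8 with at least 30 junction reads for circRNAs, the 8 circRNAs with most reads, and genes of the 32 lists. Members and lists were chosen with earlier results of these data known. Alternatives were pseudocounts of 0.01 and 1, other filters and other scalings. Scripts were tested on simulated data. Of the gene names, 24 had become dates and were not named. Python 3.11.15, pandas 2.3.3 and scipy 1.17.1 were used. Results for some genes are not reported here.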

Additional observations from a re-analysis of the deposited data

How the results depend on the processing

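No paired analysis was possible because each stage has 1 library. With a pseudocount of 1, 313 protein-coding members differed 2-fold (270 higher, 43 lower) and 75 non-coding members (24, 51). Without a filter on low values these were 1177 (883, 294) and 1405 (811, 594), and 6 of 32 list medians, against 10, were at least 0.5 from 0. Among those 10, the endothelial and skeletal muscle lists held 1 member each, and the epithelial and erythroid list 2. With a mean FPKM of at least 1 over 4 libraries, 93 non-coding members differed (42, 51). For circRNAs, a minimum of 2 junction reads gave 2377 (931, 1446) and of 20 reads 275 (129, 146). Another 4 alternatives were chosen after seeing the data. The set of circRNAs above 0 in both libraries gave 527 (202, 325). With FPKM of at least 1 in both libraries 342 (289, 53) and 36 (14, 22) differed. With the counting interval wholly beyond 2-fold, 384 and 68 protein-coding members and 91 non-coding ones (39, 52) did. Rescaling by fragments outside 7SL RNA gave 421 higher and 120 lower protein-coding members. Of the planned scalings, dividing D4 by the median ratio moved the log2 ratio of a gene by up to 0.10 and gave 404 higher and 131 lower protein-coding members, against 483 and 104. No list median of at least 0.5 and none of the protein-coding and non-coding genes with the largest rises and falls changed direction under the alternatives run for them. Other genes named in the report were not run, and log2 ratios within 0.10 of 0 have no firm direction by the scaling alone. For larger ratios, the direction was not tested against the variation between libraries or cultures. Depth limits the non-coding and circRNA counts, and the variation between cultures was not measured.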
